A study of Mus musculus with 3 samples.

Results

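Metallothioneins, their regulator MTF-1 and 6 zinc transporters were followed in peritoneal cells, labelled as macrophages, of mice given hexavalent chromium. The 9 genes were Mt1, Mt2, Mtf1, Slc30a1, Slc30a4, Slc39a1, Slc39a8, Slc39a10 and Slc39a14. They were chosen by name, as every non-control probe whose gene name, or current symbol through its accession, was on that list. They are represented by 17 of the 41174 probes of the array, and 8 of them are among the 14562 genes with a probe well above background on at least 1 array. Slc39a8 is the exception.

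The mice were male Swiss albino animals aged 8 weeks, in groups of 10. Lipopolysaccharide, which draws macrophages to the peritoneum, was injected there at 125 µg in every animal at the start (day 0). On day 4 a second injection held 100 ng TPA, a phorbol ester, which was all that the controls were given. For the other groups it also held 35 or 70 nmol of potassium dichromate, which the sample labels write as Cr(VI). Peritoneal cells were washed out 4 days later, and RNA was hybridised to a one-colour Agilent whole-genome array, with 1 array for each group. The labels do not say whether the RNA came from 1 animal or a pool, no group was left without lipopolysaccharide and TPA, and no difference below has a replicate check.

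Metallothioneins are small cysteine-rich proteins that bind zinc, copper and cadmium and buffer the free zinc of the cell. The zinc finger factor MTF-1 senses free zinc, binds metal response elements in the promoters of metallothionein genes and of the exporter gene Slc30a1, and raises their transcription. Proteins of the SLC30 (ZnT) family move zinc out of the cytosol, into organelles or out of the cell, and those of the SLC39 (ZIP) family move it into the cytosol. In macrophages, lipopolysaccharide and cytokines are known to shift several of these genes, and metallothioneins are also induced by glucocorticoids and by interleukin 6.

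A level below is the log2 signal of a probe minus the 75th percentile of its array, so 0 is that percentile. A difference is the difference of 2 such levels on the log2 scale, and its error is the scanner software's own, which is set mainly by a fixed 10% of the signal and leaves out the spread between animals. For a gene to be measured in a comparison, its brightest probe had to be well above background, unsaturated and no outlier on each of the arrays compared. The scanner software marked 45.1% to 49.1% of probes as well above background, the highest share being that of the control. Where a probe was printed more than once, the median standard deviation over its spots was 0.034 to 0.043. Scaling on spike-in RNA, in place of the percentile, rested on only 4 of 10 spike-in probes. These had a log2 processed signal between 8 and 14 on every array. With that scaling the median difference of all genes was -0.32 at 70 nmol and -0.38 at 35 nmol. With the percentile it was 0.04 in both comparisons, so each difference is relative to the bulk of genes. The macrophage label held in so far as 9 of 10 general macrophage markers were measured on every array and the tenth, Lyz2, was saturated. The RNA was not of macrophages alone, as all 6 B cell markers were well above background on every array too. Levels on the control, 35 and 70 nmol arrays were 7.24, 7.24 and 6.91 for the B cell marker Cd79b. They were 7.67, 7.71 and 7.16 for Adgre1, which encodes the macrophage marker F4/80. The median difference of the 9 macrophage markers from the control was -0.02 at 35 nmol and 0.20 at 70 nmol. At 70 nmol Mrc1 (1.59) and Cd163 (1.15), scavenging receptors of macrophages, passed 2-fold. There 3 of the 9 lay below 0: Adgre1 (-0.51, and -0.79 on another probe), Cd14 (-0.24) and Itgam (-0.09).

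Mt2 was higher on both chromium arrays than on the control array, and more so at 35 than at 70 nmol, whereas Mt1 was above the control by more than the scanner error at 35 nmol alone, and with spike-in scaling at neither dose. The exporter Slc30a1 was highest at 70 nmol. Mtf1, Slc39a1 and Slc39a10 stayed within 0.33 of the control on their brightest probes, and the importers Slc39a8 and Slc39a14 were near or below the detection limit on the chromium arrays. At 35 nmol 1 of 7 measured members passed 2-fold upward and 0 passed it downward, where 1.12% and 0.299% of the 12730 measured genes did so. At 70 nmol 0 of 6 measured members differed 2-fold in either direction, beside 1.63% higher and 1.08% lower of 12541 genes. The members' median difference was 0.14 at 35 nmol and 0.24 at 70 nmol, and that of all measured genes was 0.04 in both comparisons. Of the members 4 of 7 lay above 0 at 35 nmol and 4 of 6 at 70 nmol, and of all measured genes 58.3% and 56.2% did. With spike-in scaling the members' median was -0.28 at 35 nmol and -0.12 at 70 nmol, beside -0.38 and -0.32 for all measured genes. Then 3 of 7 members lay above 0 at 35 nmol and 2 of 6 at 70 nmol.

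**Figure D1:**
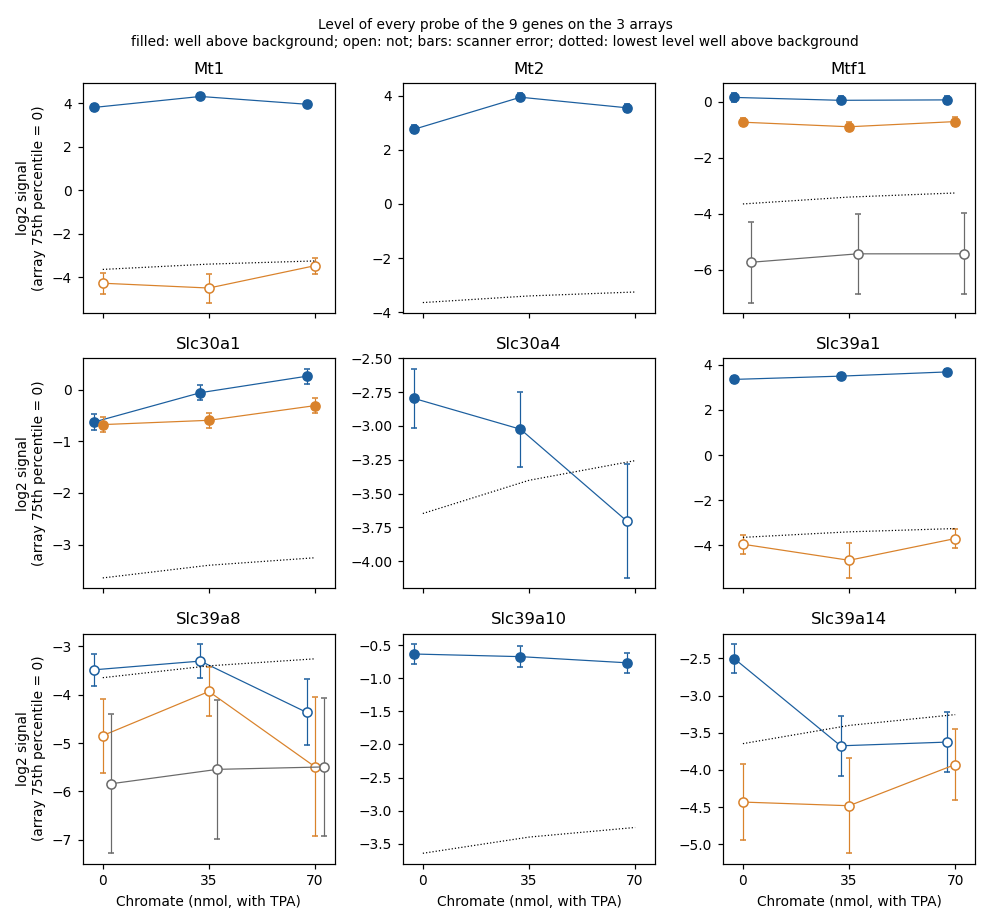
The panels give the level of each of the 17 probes (log2 signal, with each array's 75th percentile at 0) on the control, 35 and 70 nmol arrays, 1 array each, with scanner error as bars and open symbols where the probe was not well above background. The dotted line is the lowest level well above background on each array. Because that flag is set spot by spot against local background, an open symbol can lie above the line. The Mt2 probe was at 2.76, 3.94 and 3.56.

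The pair of metallothionein genes comes first. Mt1 and Mt2 lie side by side in the mouse genome, and MTF-1 acts on both through their promoters. The sequences before the annotated starts of these genes and of Slc30a1 are shown because MTF-1 is known to raise their transcription and because they had the largest positive differences of the measured members at 35 nmol. They are the bases before the start in RefSeq's mouse assembly GRCm38.p6, on the plus strand: chr8:94178839-94179088 for Mt1, chr8:94172368-94172617 for Mt2 and chr1:191906531-191906780 for Slc30a1. Capitals mark matches to the core of the metal response element, searched as TGCACNC and TGCGCNC on both strands, with overlapping matches counted once.
Mt1: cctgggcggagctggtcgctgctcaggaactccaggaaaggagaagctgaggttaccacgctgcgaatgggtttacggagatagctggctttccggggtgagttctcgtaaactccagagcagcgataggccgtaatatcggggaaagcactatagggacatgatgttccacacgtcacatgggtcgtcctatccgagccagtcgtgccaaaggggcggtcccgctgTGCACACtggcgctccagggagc
Mt2: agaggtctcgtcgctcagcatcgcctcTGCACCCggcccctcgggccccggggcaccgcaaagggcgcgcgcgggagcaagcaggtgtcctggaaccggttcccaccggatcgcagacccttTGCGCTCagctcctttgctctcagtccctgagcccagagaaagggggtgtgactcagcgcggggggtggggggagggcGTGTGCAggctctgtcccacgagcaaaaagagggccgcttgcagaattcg
Slc30a1: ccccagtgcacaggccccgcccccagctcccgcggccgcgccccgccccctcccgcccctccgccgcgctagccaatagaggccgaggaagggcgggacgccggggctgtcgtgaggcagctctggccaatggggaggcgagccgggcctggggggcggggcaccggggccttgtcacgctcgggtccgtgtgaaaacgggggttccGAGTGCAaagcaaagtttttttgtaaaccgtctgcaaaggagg

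Over the whole window of 300 bases, 250 before and 50 after the start, Mt2 held 4 matches, Mt1 and Slc30a4 held 3 each and Slc30a1 held 2. The matches just after the start lay at bases 3 to 9 and 21 to 27 in Mt1 and at bases 5 to 11 in Mt2, counted from 1 at the annotated start. Positions and counts depend on that annotation, and where transcription starts in these cells was not tested. Slc39a8 held 1 match in the second of its 2 windows. The windows of Mtf1 and Slc39a1 and both windows of Slc39a10 held 0, which says only that these letters are not in these windows. Of 32851 windows of this length in the RefSeq table, 25.7% held at least 1 match, 6.14% at least 2, 1.31% at least 3 and 0.295% at least 4. RefSeq windows were matched for 8 of the 9 members, all but Slc39a14. A match to these letters is a description and not evidence of binding in these cells.

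**Figure D2:**
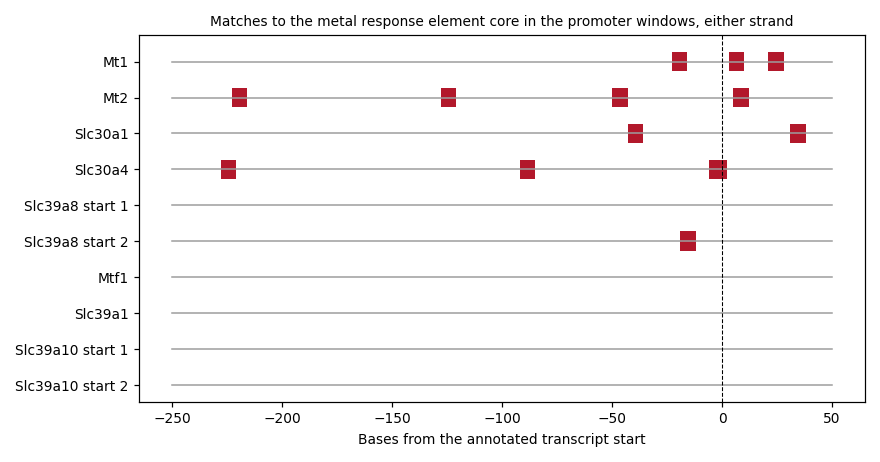
Each line is 1 promoter window, from 250 bases before to 50 bases after an annotated transcript start (dashed line), and each bar is a match to the metal response element core on either strand. Mt2 has 4 bars, Mt1 and Slc30a4 have 3, Slc30a1 has 2, and Mtf1, Slc39a1 and Slc39a10 have 0.

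Mt2 was measured by 1 probe on 1 spot, at chr8:97062600-97062659 in the array design's positions on build mm8. Its processed signal was 1827 for the control RNA, 3169 for 35 nmol and 2521 for 70 nmol, which gave levels of 2.76, 3.94 and 3.56. The control array was the lowest and the 35 nmol array the highest. Mt2 was 2.27-fold higher at 35 nmol (1.18 ± 0.20, scanner error) and 1.73-fold higher at 70 nmol (0.79 ± 0.20). In order of decreasing difference it stood at place 99 of 12730 genes at 35 nmol and at place 356 of 12541 at 70 nmol. Between the chromium arrays it was 0.39 ± 0.20 lower at the higher dose (-0.39). Mt2 was the member past 2-fold at 35 nmol, and under spike-in scaling its differences were 0.76 at 35 nmol and 0.43 at 70 nmol, both still above 0.

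Mt1 had a bright probe at chr8:97069240-97069299 (mm8) printed on 10 spots, which makes it the most closely measured of the members. Leaving out 1 outlier spot each on the control and 70 nmol arrays, the spots spanned levels of 3.80 to 3.86 in the control, 4.28 to 4.35 at 35 nmol and 3.94 to 3.98 at 70 nmol. The standard deviation between spots was 0.018, 0.023 and 0.014, beside medians of 0.043, 0.043 and 0.034 over the repeated probes of each array. Spot ranges of other repeated probes were not compared. The Mt1 difference from the control was 0.50 ± 0.20 at 35 nmol, or 1.42-fold, at place 504 of 12730 genes, and with spike-in scaling it was 0.08, within the scanner error. At 70 nmol it was 0.15 ± 0.20, which is within the scanner error, and spike-in scaling turned it to -0.21. The unscaled mean signal was 3791, 4113 and 3343, so that before scaling the 70 nmol array was the lowest and after it the middle one. Repeated spots bear on the printing and scanning of an array and not on the RNA or the animals.

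A second Mt1 probe, named from a cDNA clone record and lying at chr8:97069073-97069132 (mm8), was not well above background on any array. Its levels were -4.28, -4.50 and -3.47, and it gives no fold.

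Mt2 thus differed more than Mt1 from the control. Taking the Mt1 difference from that of Mt2 on the same arrays, which removes any factor that scales a whole array, left 0.68 ± 0.29 at 35 nmol and 0.65 ± 0.29 at 70 nmol. The Mt2 to Mt1 ratio was therefore 1.60-fold and 1.56-fold higher on the chromium arrays than on the control array. Between 70 and 35 nmol the same quantity was -0.03 ± 0.29. The comparisons with the control share the control array, so these values are not independent of each other.

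**Figure D3:**
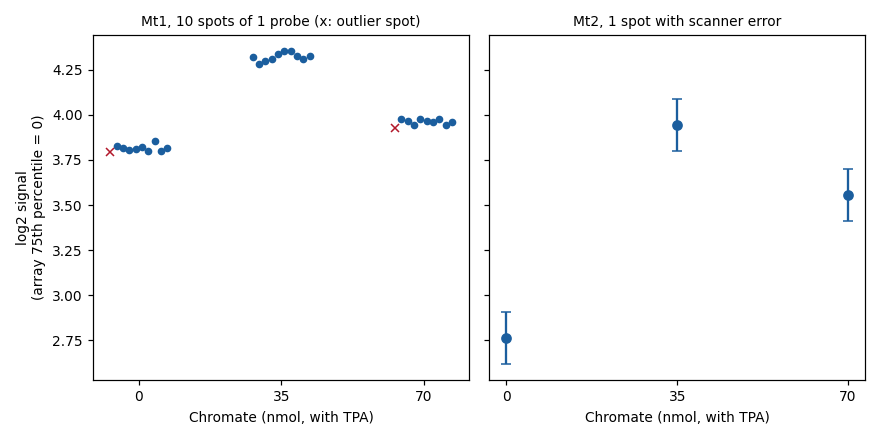
Points in the left panel are the 10 spots of the bright Mt1 probe on the control, 35 and 70 nmol arrays (crosses mark outlier spots), and points in the right panel are the single Mt2 spot with scanner error, both as log2 signal with each array's 75th percentile at 0. The Mt1 spots lie at 3.80 to 3.86, 4.28 to 4.35 and 3.94 to 3.98, and Mt2 at 2.76, 3.94 and 3.56.

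The other metallothioneins on the array, Mt3 and Mt4, known mainly from brain and from stratified epithelia, were dimmer. Mt3 was 0.26 higher at 35 nmol and 0.27 higher at 70 nmol. Mt4 differed by 0.02 and 0.98, and its control level of -3.33 was close to the lowest level well above background there (-3.65).

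Mtf1 RNA, which encodes the zinc sensor acting on these genes, differed by less than the scanner error under percentile scaling. The brightest of 3 Mtf1 probes (chr4:124351425-124351484, mm8), unlike the others, was not named from the gene's RefSeq transcript. It had levels of 0.15, 0.05 and 0.06 in the order control, 35 and 70 nmol. Its differences were -0.10 ± 0.21 at 35 nmol and -0.09 ± 0.21 at 70 nmol, and -0.52 and -0.45 with spike-in scaling. Another probe (chr4:124307281-124307340) gave -0.16 and 0.02. The probe at chr4:124349872-124349931 was not well above background on any array.

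Slc30a1 encodes ZnT1, the exporter of the plasma membrane that carries zinc out of the cell. Its brighter probe, at chr1:193610329-193610388 (mm8), had signals of 174 for the control RNA, 197 for 35 nmol and 256 for 70 nmol, with levels of -0.63, -0.06 and 0.26. The levels were lowest on the control array and highest at 70 nmol. The difference was 0.57 ± 0.21 at 35 nmol (1.48-fold, place 401 of 12730) and 0.89 ± 0.21 at 70 nmol (1.85-fold, place 278 of 12541). Between the doses it was 0.32 ± 0.21.

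The other Slc30a1 probe, at chr1:193613496-193613555, gave smaller differences in the same order. Its levels were -0.68, -0.59 and -0.31, so that it differed by 0.08 ± 0.21 at 35 nmol and by 0.37 ± 0.21 at 70 nmol. On average over both probes Slc30a1 differed by 0.32 and 0.63, and by 0.15 and 0.52 on the brighter probe with spike-in scaling. Unlike Mt1 and Mt2, both Slc30a1 probes were higher at 70 than at 35 nmol, by 0.32 ± 0.21 and 0.28 ± 0.21. Between these doses Mt2 differed by -0.39 ± 0.20 and Mt1 by -0.36 ± 0.20. In that comparison 3 of 6 measured members lay above 0 and 3 below, and 0 of 6 differed 2-fold, beside 0.92% of 12387 genes higher and 0.718% lower. Their median was -0.04, against 0.0016 for all genes.

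**Figure D4:**
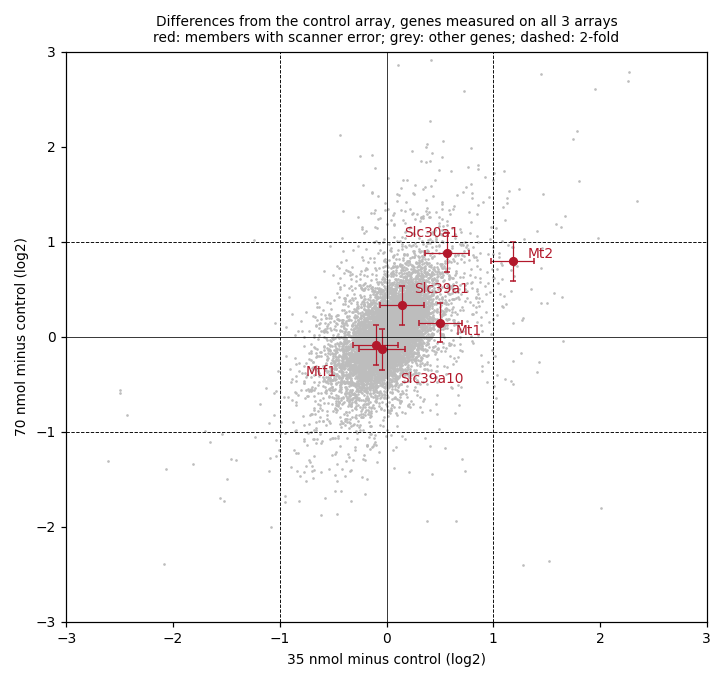
Each point is a gene measured on all 3 arrays, with its log2 difference from the control array at 35 nmol on the horizontal and at 70 nmol on the vertical axis. Members are in red with scanner error, 2-fold is dashed, and 2 of 12326 genes lie outside the axes. Mt2 lies at 1.18 and 0.79, Slc30a1 at 0.57 and 0.89, and Mtf1 and Slc39a10 lie near 0. Both axes share the control array, so the slope of the cloud is no result.

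Slc30a4 encodes ZnT4, an exporter of endosomes and secretory vesicles. Its single probe (chr2:122372980-122373039, mm8) was dim, with levels of -2.80 for the control RNA, -3.02 for 35 nmol and -3.70 for 70 nmol, where it was not well above background. It differed by -0.23 ± 0.35 at 35 nmol, and normexp background correction turned that to 0.15. At 70 nmol the bound was 1.37-fold lower than on the control array, or 0.46, with scanner error left out. The probe's difference as measured, below the detection limit, was -0.90 ± 0.48, an error wider than that bound. Of 822 genes within 0.25 of its control level, 33.9% were not well above background at 70 nmol either.

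Slc39a1 encodes ZIP1, an importer of the plasma membrane found in most cells. Its bright probe (chr3:90339300-90339359, mm8) had levels of 3.35, 3.50 and 3.68, lowest on the control array and highest at 70 nmol. The differences were 0.14 ± 0.20 at 35 nmol and 0.33 ± 0.20 at 70 nmol, and spike-in scaling turned both below 0 (-0.28 and -0.03). A second probe, at chr3:90338379-90338438, is listed in the opposite orientation and was not well above background on any array.

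Slc39a10 encodes ZIP10, an importer whose gene MTF-1 is known to repress when zinc is plentiful. The probe at chr1:46753044-46753103 (mm8) had levels of -0.63, -0.67 and -0.76. Its differences of -0.04 ± 0.22 and -0.13 ± 0.22 were smaller than the scanner error at both doses, and with spike-in scaling they were -0.46 and -0.49.

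Slc39a14 encodes ZIP14, an importer of zinc, iron and manganese that inflammation induces in liver. Its brighter probe (chr14:69038678-69038737, mm8) was well above background on the control array alone, with levels of -2.50 there, -3.68 at 35 nmol and -3.63 at 70 nmol. The bound was 1.86-fold lower than on the control array at 35 nmol and 1.68-fold lower at 70 nmol, with scanner error left out. As measured, below the detection limit, the differences were -1.17 ± 0.45 and -1.12 ± 0.45. Among all 13966 genes detected on the control array, 7.98% were lost at 35 nmol and 9.3% at 70 nmol. Among the 786 of them within 0.25 of the Slc39a14 control level, the shares lost were 12.3% and 17.9%. The other probe (chr14:69041573-69041632) was not well above background on any array and lay at -4.43, -4.48 and -3.93.

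Slc39a8 encodes ZIP8, an importer that NF-kB induces in monocytes and macrophages. None of its 3 probes was well above background on any array. The brightest (chr3:135825592-135825651, mm8) lay at -3.48, -3.30 and -4.36, the next (chr3:135824325-135824384) at -4.85, -3.93 and -5.49, and the probe at chr3:135796888-135796947 at -5.84, -5.55 and -5.50. No fold is given for this gene.

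The remaining members of both transporter families moved little. Of 8 other Slc30 genes on the array 4 were measured, none differed 2-fold at either dose, and their median difference was -0.12 at 35 nmol and -0.13 at 70 nmol. Slc30a9 differed by -0.33 and -0.46 and Slc30a6 by -0.15 and -0.27. Of 10 other Slc39 genes 7 were measured, with medians of -0.01 and 0.01 and none past 2-fold. Slc39a6, a plasma membrane importer, differed by -0.01 and 0.38, and Slc39a13, an importer of the Golgi, by 0.16 and 0.35. Beside them, all measured genes had a median of 0.04.

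Other listed targets of MTF-1 differed by small amounts. All 5 were measured, 5 lay above 0 at 35 nmol (58.3% of all genes) and 4 at 70 nmol (56.2% of all genes), none differed 2-fold, and the median was 0.19 at 35 nmol and 0.18 at 70 nmol. Ndrg1 differed by 0.31 and 0.64 and Cebpa by 0.19 and 0.53. Another Cebpa probe gave 0.27 and 0.55.

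The genes of copper handling had medians of 0.01 and 0.19 over 10 measured members. Atp7b, a copper-exporting ATPase, was 1.30 higher at 70 than at 35 nmol and differed from the control by -0.40 and 0.90.

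Pathways that also induce metallothioneins were read from lists. In the glucocorticoid response list, 7 of 7 measured genes lay above 0 at 70 nmol and 3 of 7 at 35 nmol, where 56.2% and 58.3% of all genes did, with medians of 0.26 and -0.01, and none was 2-fold from the control. Fkbp5, a chaperone induced by glucocorticoids, was 1.22 higher at 70 than at 35 nmol and differed from the control by 0.91 and -0.31 in that order. Its other probes gave 1.05 and 0.89 at 70 nmol against the control.

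The interleukin 6 and STAT3 list had medians of 0.05 at 35 nmol and 0.09 at 70 nmol over 9 measured genes, with Il6 at -0.0045 and -0.59 and Bcl3 at 0.41 and 0.09. Osmr, the oncostatin M receptor, was well above background at 70 nmol alone, at a dim level of -2.45. The bound was 2.29-fold higher there than on the control array, with scanner error left out. Another Osmr probe was not well above background on any array.

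In the oxidant response list, 6 of 7 measured genes lay above 0 at each dose, against 58.3% of all genes at 35 nmol and 56.2% at 70 nmol, with medians of 0.24 and 0.25. Hmox1, heme oxygenase, differed by 0.27 and 0.95, and Srxn1, which repairs oxidised peroxiredoxins, by 0.43 and 0.56 on its brightest probe. Another Srxn1 probe gave -1.21 and -1.16, and a further one -0.33 and 0.04, at 35 and 70 nmol. Slc7a11, the cystine importer, was well above background at 70 nmol alone, on 1 of 4 probes. The bound was 5.41-fold above the control, with scanner error left out. The other 3 Slc7a11 probes were not well above background on any array.

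**Figure D5:**
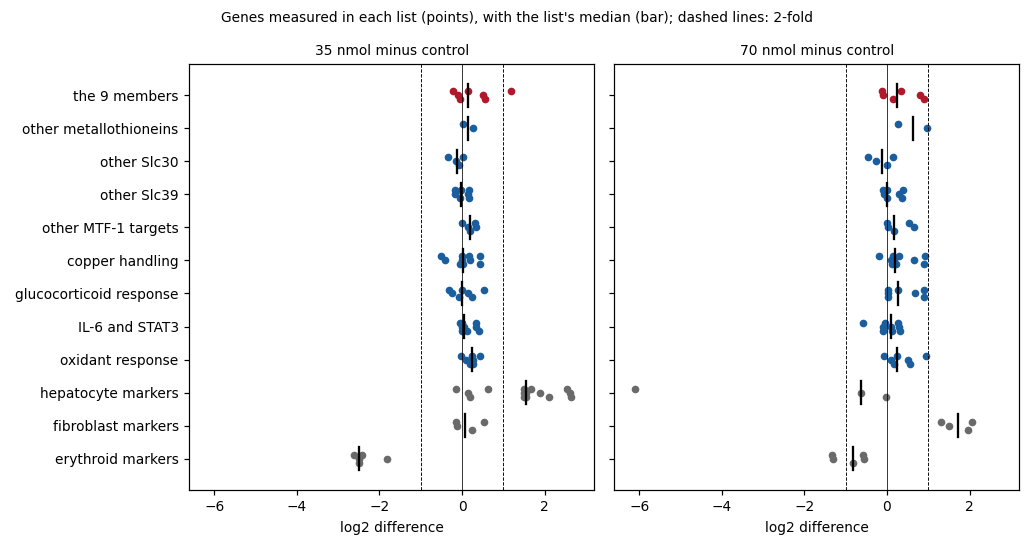
Points are the measured genes of each list, as log2 difference from the control array at 35 nmol (left) and 70 nmol (right), bars are list medians and dashed lines are 2-fold. The members' medians are 0.14 and 0.24, and other Slc30 and Slc39 genes lie around 0. Of the lists drawn, the medians farthest from 0 are erythroid (-2.50) and hepatocyte (1.56) at 35 nmol and fibroblast (1.73) at 70 nmol. The hepatocyte median at 70 nmol (-0.64) is of only 3 genes, as markers not well above background there are not drawn.

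Markers of other cells moved with the groups, and in such bulk RNA fewer cells of a type and less RNA per cell cannot be told apart. Of 18 hepatocyte markers on the array, 15 were well above background in the control RNA, 17 at 35 nmol and 3 at 70 nmol (Alb, Trf and Hp). Liver is rich in metallothionein RNA. The summed level of the list, as multiples of the 75th percentile, was 252, 298 and 200, and without Trf and Hp, left out after their values were seen, it was 23.7, 75.5 and 0.619. At 35 nmol 11 of 15 measured markers passed 2-fold upward (median 1.56). At 70 nmol Alb, the serum albumin gene, had a difference of -6.09 from the control, while Ahsg, Fgb and Serpina1d were not well above background. Liver markers were highest at 35 nmol, where Mt2 and Mt1 were highest too. At 70 nmol the sum without Trf and Hp was below the control. There Mt2 differed from the control by 0.79 ± 0.20 and Mt1 by 0.15 ± 0.20, the latter within the scanner error. With spike-in scaling these differences were 0.43 and -0.21. The part of liver RNA in the metallothionein values was not tested.

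Fibroblast markers had summed levels of 9.59, 10.9 and 32.7, and all 4 measured genes passed 2-fold upward at 70 nmol (median 1.73), the array on which Slc30a1 was highest. Large peritoneal macrophage markers were lower there, with 5 of 9 past 2-fold downward (median -1.08), and summed to 628, 664 and 501. The medians at 35 and 70 nmol were -2.50 and -0.82 for 5 erythroid markers, -0.88 and -1.56 for 6 mast cell markers, -0.57 and 0.74 for 6 neutrophil markers and -0.11 and -0.34 for 6 B cell markers. The neutrophil markers went both ways, with 1 past 2-fold upward and 3 downward at 35 nmol, and 3 upward and 2 downward at 70 nmol. The medians were 0.40 and 0.12 for 3 eosinophil markers and 0.09 and 0.83 for 2 mesothelial markers. For T and NK cell markers they were -0.13 (6 genes) and 0.04 (5 genes). The part of these cells in the metallothionein and Slc30a1 differences was not tested. With 1 array for each group, an effect of the array and an effect of the treatment cannot be told apart.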

How the data were processed

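Expression was measured on 3 Agilent one-colour arrays, 1 per group. Spot intensity was read by the authors, per the file headers, with Agilent Feature Extraction 10.5.1.1, with spatial and multiplicative detrending switched on and its background-correction switch off. Spots pass as well above background at a multiple of 13, and probe positions are on build mm8. The deposited value table holds log2 values and equals the log2 processed signal minus a constant for each array (8.00 for the control, 7.61 at 35 and 7.67 at 70 nmol), to within 0.01 in 99.8%, 99.8% and 99.9% of detected probes. Its column medians are -3.60, -3.74 and -3.78, and genes are not centred.

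Here the log2 processed signal was scaled on each array's 75th percentile over 43379 non-control spots (8.07, 7.69 and 7.74). Outlier spots were left out and spots of a probe averaged. Probes were named through their accession in the RefSeq table of GRCm38.p6 (24375 probes), else by symbol or unique synonym, and 8072 kept the file's name. A gene took the value of its brightest probe with signal well above background on any array. A bound is the brighter level minus either the dim probe's own level or the lowest level that passed as well above background on its array, whichever is higher. Scanner error is left out of a bound. Without replicate arrays nothing was tested. The number of arrays limits the precision.

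Every probe of each member is named. Of the other lists, members past 2-fold in any comparison or else the largest 2 differences are named, apart from the cell type lists, which are summarised. For Mt2 and Slc30a1 the 5 nearest genes are named. Members and lists were chosen with earlier results of these data known. Alternatives were normexp (offset 50), quantile, cyclic loess, median and spike-in scaling, 2 filters on dim probes, the mean over probes, the deposited table, and thresholds of 1.5-fold and 3-fold. The steps were checked on simulated data. Software was limma 3.58.1 in R 4.3.3, and pandas 2.3.3, matplotlib 3.10.9 and numpy 2.4.6 under Python 3.11.15. Whether a probe lies in an exon or UTR on mm8 was not analysed here.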

Additional observations from a re-analysis of the deposited data

How the results depend on the processing

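The count of members at least 2-fold higher at 35 nmol was 1, and it was 0 with spike-in scaling and with the 3-fold threshold. At 70 nmol it rose from 0 to 2 with the 1.5-fold threshold (Mt2 and Slc30a1). The looser filter on dim probes gave 1 member at least 2-fold lower, in place of 0, in each comparison. These were Slc39a14 at 35 nmol (-1.17) and 70 nmol (-1.12) and Slc39a8 between the doses (-1.06), all on probes not well above background. Of 170 member differences recomputed, 16 moved by more than the scanner error, 13 of them with spike-in scaling, and 8 changed sign. Apart from Mt1 and Slc39a1 with spike-in scaling and Slc30a4 with normexp, the sign changes were of Mtf1 between the doses (-0.02 with normexp and -0.01 with median scaling) and of Slc39a10 (0.0046 at 35 nmol with cyclic loess and 0.01 between the doses with normexp). Without spike-in scaling, Mt2 stayed between 1.09 and 1.20 at 35 nmol and between 0.70 and 0.79 at 70 nmol over 8 alternatives. Slc30a1 stayed between 0.32 and 0.59 and between 0.63 and 0.91. Over all genes at 70 nmol, spike-in scaling gave 87 higher and 400 lower, against 204 and 136, and at 35 nmol 71 and 251, against 143 and 38. Of 481 list medians recomputed, 24 moved by more than the standard deviation of the list's members. From past 2-fold to the other side of 0 turned 0, a count that leaves out every median within 2-fold. The members' own median difference from the control changed sign with spike-in scaling, to -0.28 at 35 nmol and -0.12 at 70 nmol. With the looser filter on dim probes it was -0.09 at 70 nmol. No paired analysis was possible because each group had 1 array. Signal over background limits Slc30a4, Slc39a8 and Slc39a14.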

Other observations

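Genes nearest to Mt2 in both differences from the control, by Euclidean distance, were Trim55 (distance 0.15), Chil3 (0.15), Ffar2 (0.16), Asns (0.18) and Chil4 (0.21). Chil3, a chitinase-like protein of alternatively activated macrophages, differed by 1.19 at 35 nmol and 0.64 at 70 nmol. Asns, the asparagine synthetase, differed by 1.13 and 0.97. Chil3 and Chil4 are close relatives, so their probes may bind both. Nearest to Slc30a1 were Eps8 (0.03), Ifi205 (0.04), Per1 (0.04), Scd2 (0.06) and Rab43 (0.07). Per1, a clock gene that glucocorticoids also induce, differed by 0.53 and 0.89. The 7312 candidates were those of the 12326 genes measured on all 3 arrays that had a symbol and whose brightest array reached the median of probes well above background. The distance rests on 3 arrays and on differences that share the control.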
